A study of Mus musculus with 12 samples.

Results

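RNA-seq counts of 50 genes that encode proteins of ribosome biogenesis and of the nucleolus were described in activated splenic B lymphocytes that carry or lack Pdap1. The genes were taken by symbol and matched to their Ensembl identifiers, and all 50 were found among the 55536 features counted. Their roles divide them into 8 proteins of small nucleolar ribonucleoprotein particles (snoRNPs), 19 factors of the small subunit processome and 40S maturation, 18 factors of large subunit assembly and 5 abundant nucleolar proteins. Primary B cells came from spleens of C57BL/6 mice, were purified with anti-CD43 beads and were cultured for 48 h. Control cells carried a Cre allele active in the B lineage, and Pdap1-deficient cells were Pdap1 F/F with the same Cre allele, so that both genotypes carried Cre and deletion was limited to the B lineage, where recombination need not be complete. Cells of 3 mice per genotype were split between 2 cultures, both with LPS at 5 µg/ml. One culture (LPS-IL-4, which directs switching to IgG1) also had IL-4 at 5 ng/ml, and the other (LPS-BAFF-TGFβ, which directs switching to IgG2b) had BAFF at 10 ng/ml with TGFβ at 2 ng/ml, giving 12 libraries in 4 groups. The study used young to adult mice of both sexes in groups matched for age, and the labels do not give the age or sex behind each library. Mice are called control 1 to 3 and Pdap1-deficient 1 to 3, and by the series design cultures that share a number were taken as the same mouse.

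A ribosome starts in the nucleolus, where RNA polymerase I transcribes a long precursor that is cut into 18S, 5.8S and 28S rRNA. Box C/D snoRNPs guide methylation and box H/ACA snoRNPs guide pseudouridylation of this RNA, the processome folds and cuts its 18S part, and a succession of helicases, GTPases and scaffold proteins builds the large subunit before export. Resting B cells have small nucleoli, and mitogens such as LPS enlarge them as the cells grow and prepare to divide. The transcription factor Myc, which binds the E-box CACGTG, is known to drive many genes of this pathway.

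Promoter letters are shown because all 50 genes were lower in Pdap1-deficient cells in LPS-IL-4, and they let shared motifs be read beside the values. RefSeq start sites on GRCm38.p6 were found for 44 of the 50 genes, and Fbl, Bop1, Rrp12, Rrs1, Npm1 and Tcof1 had no entry. The windows searched ran from 250 bases before to 50 bases after the start. In each role group the gene shown is the one with the smallest adjusted p between genotypes in LPS-IL-4 among those with CACGTG before the start, or, with none, with CCGGAAG (the core of ETS factor sites) on either strand. Capitals mark these motifs, and each line gives the 250 bases before the start, 5′ to 3′.
Nop2, chr6:125131633-125131882, plus strand: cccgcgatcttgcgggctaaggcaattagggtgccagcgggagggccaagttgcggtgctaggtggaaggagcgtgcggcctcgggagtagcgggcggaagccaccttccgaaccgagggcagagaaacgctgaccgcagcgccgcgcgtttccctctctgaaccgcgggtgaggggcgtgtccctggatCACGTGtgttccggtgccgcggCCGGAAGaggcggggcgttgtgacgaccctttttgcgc
Imp4, chr1:34439579-34439828, plus strand: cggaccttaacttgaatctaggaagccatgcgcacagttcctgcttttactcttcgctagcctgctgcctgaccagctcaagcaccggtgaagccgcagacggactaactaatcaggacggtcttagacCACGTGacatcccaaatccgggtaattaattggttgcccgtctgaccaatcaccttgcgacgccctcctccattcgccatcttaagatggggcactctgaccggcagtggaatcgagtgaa
Nhp2, chr11:51619523-51619772, plus strand: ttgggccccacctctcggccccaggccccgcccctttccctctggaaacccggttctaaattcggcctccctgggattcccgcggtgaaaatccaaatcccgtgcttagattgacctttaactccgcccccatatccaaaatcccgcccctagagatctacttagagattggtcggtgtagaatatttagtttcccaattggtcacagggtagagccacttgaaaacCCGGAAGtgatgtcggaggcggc
The E-box began 60 bases before the start of Nop2, which encodes the 28S rRNA methyltransferase, and 121 bases before that of Imp4, a partner of U3 RNA. Among the 44 windows 9 held CACGTG (20.5%), against 10.5% of the promoters of 8749 genes tested in LPS-IL-4 and 8.10% of all 16538 promoters. CCGGAAG, read on both strands, was in 17 windows (38.6%), against 20.2% of the tested and 12.3% of all promoters. TATAAA was in 2 windows (4.55%), against 6.79% and 12.9%. Neither the NRF1 palindrome nor GCCATCTTG, a YY1 motif, was in any of the 44 windows, against 2.34% and 2.64% of the tested promoters and 1.38% and 1.55% of all. The 9 genes with the E-box had a median log2 difference between genotypes in LPS-IL-4 of -0.43 and the 35 genes without it of -0.42, given as a description. These are matches of letters, and binding was not measured.

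Total counts were between 4579793 and 69500640, and the 50 genes together held 0.987% to 1.69% of a library. In depth, 1 library stood apart. That of control 1 in LPS-BAFF-TGFβ was the deepest, with 5.69% of its counts on rRNA features and 82.0% on protein-coding genes, while the other 11 libraries had 87.7% to 91.1% on protein-coding genes. The library of Pdap1-deficient 1 in LPS-BAFF-TGFβ came next, with 4.88% on rRNA features, a class that includes mitochondrial rRNA. It also had 9.90% of its counts on a single gene, Lars2, and the highest share on mitochondrial genes, 4.34%. For the set and for the genes with the largest differences, results that rest on the deep library are given without it too. The B cell markers, 11 genes such as Cd79b and Blk, were all detected and summed to between 3015 and 3993 CPM (counts scaled to a fixed library total) in every library. None was called between genotypes, while between stimulations in control cells 5 rose and 3 fell, among them Blk (1.47) and Cd79b (-1.24, both on the log2 scale). Pdap1 itself was at 92.8, 91.2 and 97.6 CPM in the control LPS-IL-4 libraries and at 23.3, 27.2 and 29.9 CPM in the Pdap1-deficient ones. In LPS-BAFF-TGFβ it was at 198, 80.1 and 100 CPM in control and at 26.4, 26.0 and 22.9 CPM in Pdap1-deficient libraries. The groups were separate in both stimulations, and the edgeR adjusted p was 3.5e-05 in LPS-IL-4 and 0.093 in LPS-BAFF-TGFβ.

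Per kilobase of exon, the genes differed widely in level in control LPS-IL-4 libraries. Npm1, the histone chaperone nucleophosmin, was highest at 842 ± 47.7 CPM per kb (SD, n = 3), followed by Ncl, nucleolin, at 268 ± 17.5 and the helicase Ddx21 at 227 ± 3.49 CPM per kb. Wdr43 was at 129 ± 5.78, Nolc1 at 121 ± 1.66 and Nop56 at 115 ± 3.53 CPM per kb. Gar1 at 11.6 ± 0.861 and Fbl at 10.7 ± 0.803 CPM per kb were lowest, and they differed by about their SD. Exon length here is the union of all annotated exons, which lowers the per-kilobase level of genes with long minor transcripts, as for Fbl (4209 bases, against 1197 in its principal transcript). In the Pdap1-deficient cells Npm1 was again first at 585 ± 148 CPM per kb and Fbl last at 7.97 ± 0.728 CPM per kb.

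In LPS-IL-4 the values of the set lay below control in Pdap1-deficient B cells, with 13 genes past the test. All 50 genes had a log2 difference below 0, between -0.79 for Rrp9 and -0.10 for Tcof1, with a median of -0.44, while 47.3% of the 15074 genes tested were below 0 and their median was 0.02. By the edgeR quasi-likelihood test, 13 of the 50 fell at an adjusted p under 0.05 and none rose. Among all genes tested, 2.12% fell and 4.92% were called in either direction. At an unadjusted p under 0.05, 35 were lower, against 11.7% of all genes. In 40 genes every Pdap1-deficient library was below every control library, against 16.1% of all genes. DESeq2 called 27 (2.29% of all genes), and 32 were called with no filter on low counts (2.8%). In bulk RNA, fewer cells of a type and less RNA per cell cannot be told apart.

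**Figure D1:**
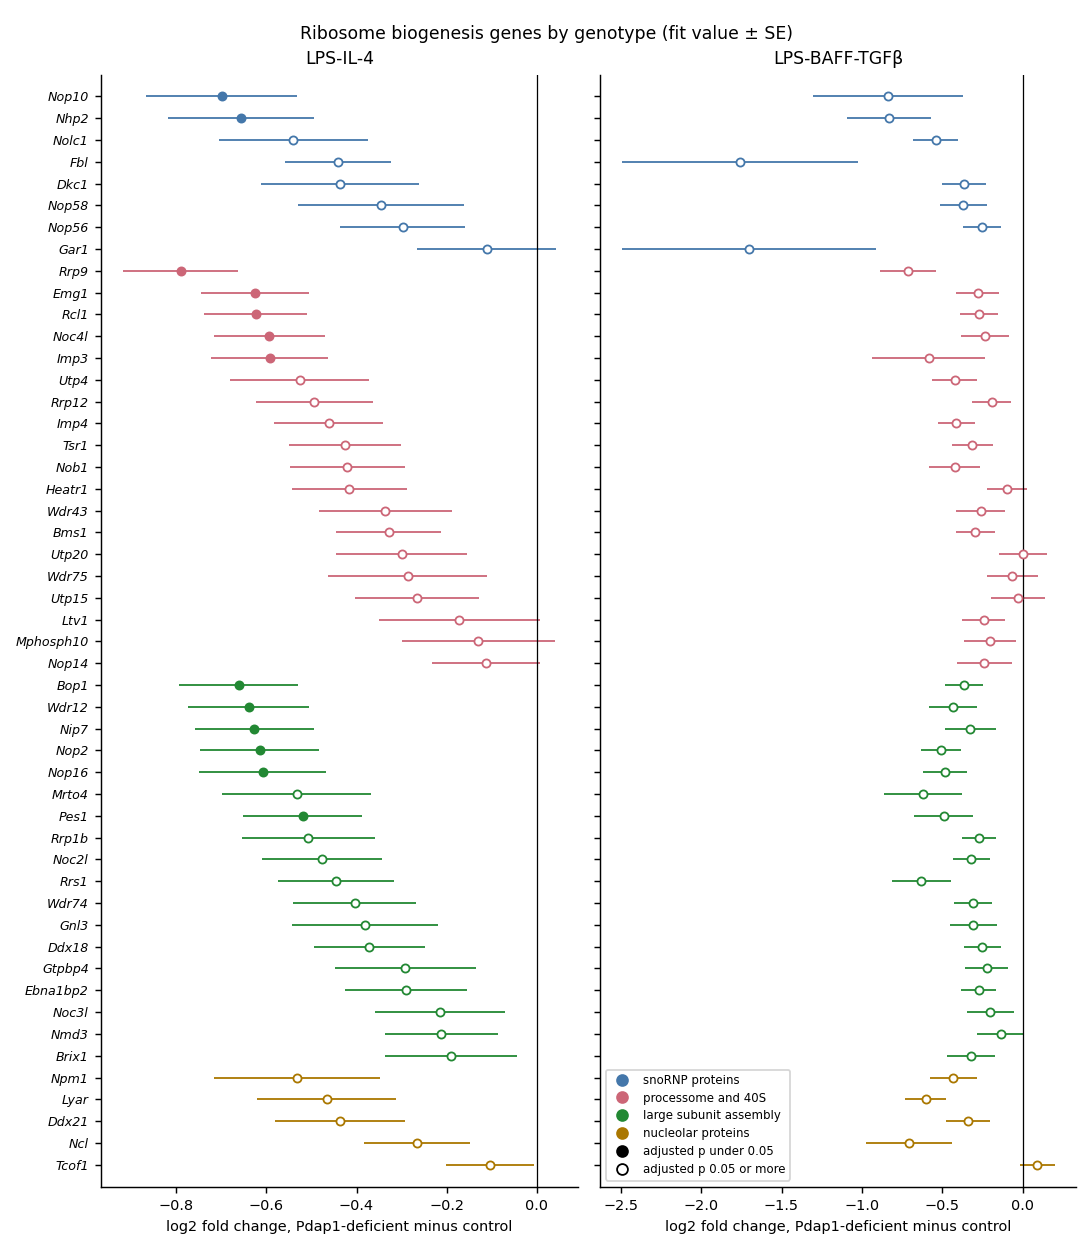
Log2 difference between Pdap1-deficient and control cells (point, fitted value; bar, SE; n = 3 mice per group) for each of the 50 genes, in LPS-IL-4 on the left and LPS-BAFF-TGFβ on the right, where the axis spans a wider range. Filled points passed the adjusted p; all 50 values on the left are below 0, and Tcof1 is the exception on the right.

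The processome and 40S factors held the gene with the largest difference. Rrp9 (ENSMUSG00000041506, chr9:106475963-106485424, plus strand on GRCm38) encodes a protein that binds U3 snoRNA. It was at 85.6, 95.7 and 108 CPM in control 1, 2 and 3 and at 63.3, 50.4 and 54.2 CPM in Pdap1-deficient 1, 2 and 3. All 3 Pdap1-deficient values lay below the lowest control value. The log2 difference was -0.79 ± 0.13 (SE), with an edgeR adjusted p of 0.0094. Rcl1, an RNA 3′-terminal cyclase-like protein that works with the GTPase Bms1, was at 97.5, 105 and 99.7 CPM in control and at 73.1, 58.3 and 65.9 CPM in Pdap1-deficient libraries. The groups did not overlap, and the fall was -0.62 ± 0.11 (edgeR adjusted p = 0.017). Emg1, the methyltransferase that modifies 18S rRNA, was at 180, 182 and 203 CPM in control against 138, 107 and 122 CPM. Its fall was -0.63 ± 0.12 (edgeR adjusted p = 0.020). Emg1 shares 334 exon bases with Lpcat3 on the opposite strand, and whether strand was used in counting is not stated in the sources used here. Noc4l, the partner of Nop14, fell by 0.59 on the log2 scale from 126 ± 5.06 to 83.9 ± 12.2 CPM (SD, n = 3; edgeR adjusted p = 0.027). Imp3, a U3 partner, fell by 0.59 from 37.9 ± 3.78 to 25.3 ± 2.71 CPM (edgeR adjusted p = 0.031).

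The other 14 factors of this group were lower without passing the test. Heatr1, which is UTP10 of the UTP-A complex, was at 557, 583 and 552 CPM in control and 469, 356 and 451 CPM in Pdap1-deficient libraries, with no overlap. The difference was -0.42 ± 0.13 (edgeR adjusted p = 0.086). Nob1, the nuclease that makes the mature 3′ end of 18S rRNA, had an edgeR adjusted p of 0.083 at -0.42 ± 0.13. Bms1 and Utp20 were at -0.33 ± 0.12 and -0.30 ± 0.14. Nop14 differed by -0.11 ± 0.12 and its libraries overlapped, so within one complex the log2 differences of Noc4l and Nop14 stood 0.59 and 0.11 below 0.

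Large subunit assembly had 6 of its 18 genes called, among them all 3 members of the PeBoW complex, which is needed for maturation of 28S and 5.8S rRNA. Bop1 (ENSMUSG00000022557, chr15:76452989-76477277, minus strand) was at 213, 207 and 232 CPM in control and at 165, 119 and 130 CPM in Pdap1-deficient libraries. It fell by 0.66 ± 0.13 on the log2 scale (edgeR adjusted p = 0.024). Wdr12 was at 172, 179 and 164 CPM against 120, 89.3 and 123 CPM and fell by 0.64 ± 0.13 (edgeR adjusted p = 0.028). Pes1 was at 148, 154 and 175 CPM against 125, 93.3 and 116 CPM and fell by 0.52 ± 0.13, close to the threshold (edgeR adjusted p = 0.0497). In each of the 3 genes the groups were separate. Nip7, a pre-60S factor, fell by 0.63 (edgeR adjusted p = 0.029), Nop2 by 0.62 (edgeR adjusted p = 0.030) and Nop16 by 0.61 (edgeR adjusted p = 0.039). Gnl3, the GTPase nucleostemin, was at -0.38 ± 0.16, Gtpbp4 at -0.29 ± 0.16 and Nmd3, the adaptor for export of the 60S subunit, at -0.21 ± 0.13. None of these 3 passed.

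Among the snoRNP proteins the H/ACA core genes Nop10 and Nhp2 fell. Nop10 (ENSMUSG00000027133, chr2:112261926-112263269, plus strand) was at 50.1, 54.7 and 59.97 CPM in control and at 39.98, 25.4 and 36.7 CPM in Pdap1-deficient libraries. The groups were separate, and the fall was -0.70 ± 0.17 (edgeR adjusted p = 0.043). Nhp2 was at 109, 108 and 125 CPM against 90.7, 57.2 and 70.1 CPM, with a fall of -0.66 ± 0.16 (edgeR adjusted p = 0.047). Dkc1, the pseudouridine synthase of the same particle, was at -0.44 ± 0.17 (edgeR adjusted p = 0.17), and the fourth H/ACA core gene, Gar1, overlapped between the groups at -0.11 ± 0.15. The box C/D genes were lower without passing, at -0.44 ± 0.12 for the methyltransferase gene Fbl (edgeR adjusted p = 0.058), -0.35 ± 0.18 for Nop58 and -0.30 ± 0.14 for Nop56. Nolc1, which chaperones both kinds of particle, was at -0.54 ± 0.16 (edgeR adjusted p = 0.085).

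None of the 5 abundant nucleolar proteins passed the test. Npm1 was at 2324, 2311 and 2098 CPM in control and at 1735, 1108 and 1835 CPM in Pdap1-deficient libraries. The values did not overlap, yet they spread widely among the Pdap1-deficient mice, and the difference was -0.53 ± 0.18 (edgeR adjusted p = 0.12). Ncl was at 2614, 2940 and 2650 CPM against 2211, 2267 and 2391 CPM, which is -0.27 ± 0.12 (edgeR adjusted p = 0.20). Ddx21 was at -0.44 ± 0.14 (edgeR adjusted p = 0.10). Tcof1, treacle, which links RNA polymerase I transcription to rRNA processing, was at 381, 369 and 404 CPM against 366, 372 and 343 CPM. Its groups overlapped, and the difference was the smallest of the set at -0.10 ± 0.10.

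**Figure D2:**
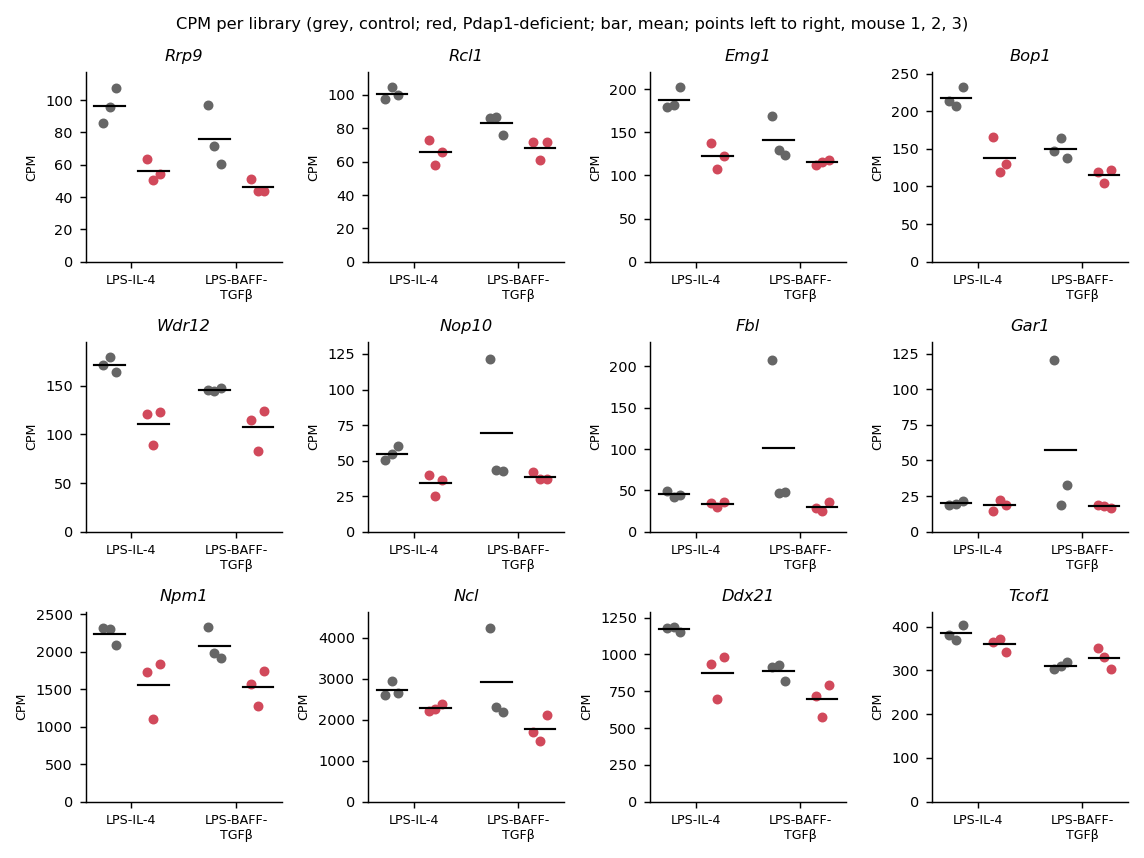
CPM (vertical axis, starting at 0 and scaled for each gene) in every library for 12 of the 50 genes, with control in grey, Pdap1-deficient in red and a bar at each group's mean. Rrp9, Rcl1, Emg1, Bop1, Wdr12 and Nop10 separate by genotype in LPS-IL-4, Tcof1 does not, and Fbl and Gar1 show 1 control library far above all others in LPS-BAFF-TGFβ.

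Near-identical copies matter for some of these genes. Pseudogenes at 95% identity or more over at least 200 bases were annotated for 9 of the 50, and for 6 of them the copies held more than 1% of the gene's own counts. The 4 Npm1 copies held 66.0% of the Npm1 count, the 2 copies of the helicase gene Ddx18 held 52.6% and those of Mrto4 21.9%. Reads may be split between a gene and its copies, so the levels of these genes are uncertain. The ratio of Pdap1-deficient to control mean CPM in LPS-IL-4 was 0.695 for Npm1 alone and 0.711 for Npm1 summed with its copies. For Ddx18 these ratios were 0.778 and 0.776, and for Mrto4 0.695 and 0.689, so adding the copies changed the ratio little. A total of 21 snoRNA genes lie within the introns or exons of 7 members, including Ncl, Nop56 and Gnl3, and 10 of these had no count in any library. Each of these 10 shares 56 to 133 exon bases with its host on the same strand, while those with counts share none. Whether the 10 are expressed was therefore not tested.

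The decrease differed among the mice. In each library the level of every gene was set against the control mean of the same stimulation, on a log2 CPM scale. The median over the 50 genes was -0.28, -0.72 and -0.31 in Pdap1-deficient 1, 2 and 3 in LPS-IL-4, against -0.02, 0.03 and -0.02 in control 1, 2 and 3. Pdap1-deficient 2 was the lowest, for 47 of 50 genes, and its own role groups ranged from -0.68 for processome and 40S factors to -0.88 for snoRNP proteins. The same mouse was the lowest of its group in LPS-BAFF-TGFβ for 43 genes, with medians of -0.30, -0.53 and -0.21 in Pdap1-deficient 1, 2 and 3. It was lowest in both stimulations for 42 genes. Without Pdap1-deficient 2, the median in LPS-IL-4 was -0.29, 47 of 50 genes were lower and 28 genes passed the test, against 4.49% of all genes called lower. Without Pdap1-deficient 1 it was 26 (5.32%), and without control 1 it was 1 (0.116%). None of the 50 passed without Pdap1-deficient 3, control 2 or control 3, where 33 of 15497, 11 of 15693 and 12 of 15655 genes fell. The 28 included all 13 named above and 15 more, one of them Npm1 at -0.33 (edgeR adjusted p = 0.011).

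Myeloid and T cell markers were highest in this mouse in both stimulations, and the rRNA and mitochondrial shares of counts in LPS-IL-4 only. The 12 genes of the myeloid list, among them Lyz2, Adgre1 and S100a8, summed to 9.24 to 19.1 CPM in control LPS-IL-4 libraries and to 11.9, 327 and 39.7 CPM in Pdap1-deficient 1, 2 and 3. In LPS-BAFF-TGFβ the sums were 20.6 to 28.9 CPM in control and 15.3, 567 and 83.8 CPM in Pdap1-deficient 1, 2 and 3. Of the 12 genes, 4, 1, 2 and 3 were at 0 in control LPS-IL-4, Pdap1-deficient LPS-IL-4, control LPS-BAFF-TGFβ and Pdap1-deficient LPS-BAFF-TGFβ, with Elane at 0 in every group. The B cell marker sum of Pdap1-deficient 2 was the highest of the LPS-IL-4 libraries at 3993 CPM, and in LPS-BAFF-TGFβ, at 3325 CPM, it was the highest of the Pdap1-deficient libraries and within the control range of 3119 to 3337 CPM. CD43, the target of the beads, is carried by T cells and most myeloid cells. T cell markers summed to 49.5 CPM in Pdap1-deficient 2 in LPS-IL-4, against 9.47 to 29.5 CPM in the other 5 libraries, and to 29.3 CPM in LPS-BAFF-TGFβ, against 11.9 to 21.3 CPM. NK cell markers summed to 7.46 CPM in Pdap1-deficient 2 in LPS-IL-4 and to 1.24 CPM in LPS-BAFF-TGFβ, where control 2 had 1.82 CPM. Erythroid markers did not set this mouse apart from Pdap1-deficient 3. They summed to 9.78, 20.8 and 24.1 CPM in Pdap1-deficient 1, 2 and 3 in LPS-IL-4. In LPS-BAFF-TGFβ they summed to 11.3, 20.6 and 20.2 CPM. The LPS-IL-4 library of Pdap1-deficient 2 also had the highest share of counts on rRNA features, 2.595% against 1.04% to 1.63%, and on mitochondrial genes, 3.26% against 1.99% to 2.93%. These shares overlap, since mitochondrial rRNA is counted in both. The mitochondrial rRNA mt-Rnr2 alone held 1.87% of the LPS-IL-4 counts of Pdap1-deficient 2. In LPS-BAFF-TGFβ its share on rRNA features was 1.85%, against 1.58% to 5.69%, and on mitochondrial genes 2.85%, against 2.86% to 4.34%. The part of these signals in the lower values of Pdap1-deficient 2 was not tested.

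**Figure D3:**
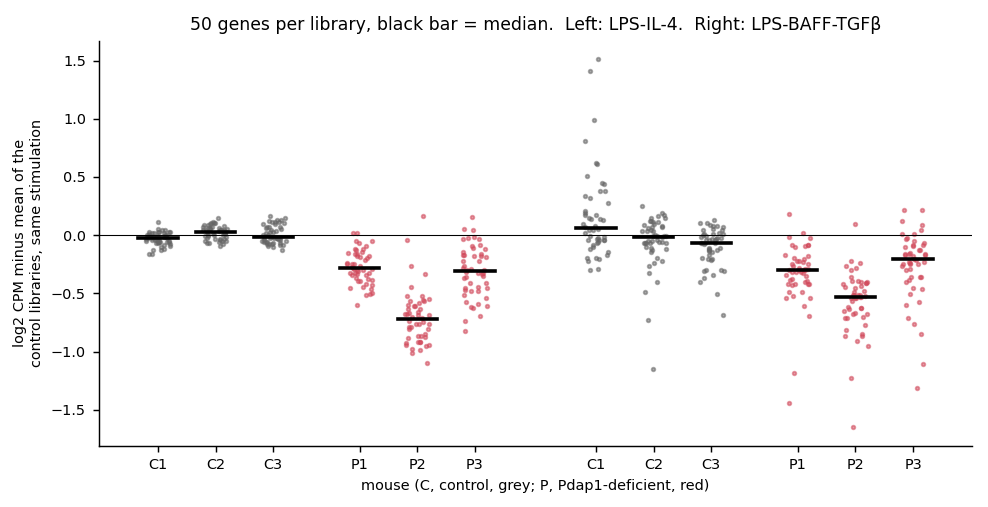
Log2 CPM of each of the 50 genes minus the mean of the control libraries of the same stimulation, by library, with LPS-IL-4 on the left and LPS-BAFF-TGFβ on the right; black bars are medians. The Pdap1-deficient medians are between -0.21 and -0.72 and all below the control medians, and control 1 in LPS-BAFF-TGFβ has genes far above the rest.

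In LPS-BAFF-TGFβ, 49 of the 50 genes were lower in Pdap1-deficient cells and none passed the test. The median was -0.32, with 49.1% of the 14079 genes tested below 0 and a median of 0.01 over all genes. Among all genes 0.0071% fell and 0.462% were called in either direction. At an unadjusted p under 0.05, 26 of the 50 were lower (5.28% of all genes), and the DESeq2 Wald test called 3 of them, Lyar, Nhp2 and Rrp9 (0.139% of all genes). With no filter on low counts 5 passed (0.374%). In 35 genes the 2 genotypes did not overlap, all with the Pdap1-deficient libraries lower, against 9.09% of all genes. Tcof1 was the exception, at 304, 309 and 319 CPM in control and 352, 331 and 304 CPM in Pdap1-deficient libraries, which is 0.09 ± 0.11.

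The largest differences in LPS-BAFF-TGFβ were those of snoRNP genes and rested on the deep control library. Fbl was at 208, 46.9 and 48.5 CPM in control 1, 2 and 3 and at 28.5, 24.7 and 36.0 CPM in Pdap1-deficient 1, 2 and 3. Its log2 difference was -1.76 ± 0.74 with all libraries (edgeR adjusted p = 0.50) and -0.67 ± 0.15 without control 1 (edgeR adjusted p = 0.064). Gar1 was at 120, 18.9 and 32.7 CPM against 18.5, 17.9 and 16.8 CPM, and moved from -1.70 ± 0.79 to -0.54 ± 0.21 when that library was left out. Nop10, at 121, 43.3 and 42.8 CPM against 42.2, 37.1 and 37.0 CPM, moved from -0.84 ± 0.46 to -0.15 ± 0.12. In the deep library, 9 genes were at least 1.5 times the mean of control 2 and 3, and these were Gar1, Fbl, Nop10, Imp3, Nhp2, Ncl, Mrto4, Rrs1 and Pes1. They had a median transcript GC content of 54.2% against 48.0% for the other 41, and 21 of the 50 genes were at or below the mean of the other 2 control mice. Of the 9, Nop10 and Ncl were at 46.5% and 42.8% GC, while Rrp9, outside them, was at 59.8%. Transcripts of Gar1, Fbl, Nop10, Imp3, Nhp2 and Mrto4 have 924 to 1271 bases, and those of Rrs1, Pes1 and Ncl 2048 to 8202. Emg1 and Wdr74, outside the 9, have 1034 and 1204 bases. Neither GC nor length was tested. Without the deep library the median over the set was -0.30, none passed the test (11 of all 14585 genes fell) and 49 were again lower.

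Other genes were lower with a smaller SE. Lyar, a nucleolar zinc finger protein, was at 185, 163 and 161 CPM in control and at 121, 92.9 and 119 CPM in Pdap1-deficient libraries. It had the smallest adjusted p of the set, 0.14 by edgeR, at -0.60 ± 0.13. Rrp9 was at 97.1, 71.3 and 60.1 CPM against 51.2, 43.7 and 43.9 CPM, a difference of -0.72 ± 0.17 (edgeR adjusted p = 0.20). Nop2, at 228, 191 and 184 CPM against 150, 126 and 146 CPM, differed by -0.51 ± 0.12 (edgeR adjusted p = 0.20). In each of these 3 genes the genotypes were separate. At the other end Utp20 was at -0.00 ± 0.15, Utp15 at -0.03 ± 0.17, Wdr75 at -0.07 ± 0.16 and Heatr1 at -0.10 ± 0.12, all with overlapping groups, and each is a processome subunit. The deep library held these at 0.837, 0.734, 0.737 and 0.898 times the mean of control 2 and 3, in the same order. It held Rrp9 at 1.48 times that mean. The differences of these genes thus rest in part on the deep library, and their fits without it are not given here.

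Between the 2 stimulations the genotype difference was tested directly in 1 fit of all 12 libraries. None of the 50 genes was called, and neither was any of the 15794 genes tested (0.0%). Of the members 17 had a value below 0 (55.7% of all genes), and none of these had an unadjusted p under 0.05 (3.17%). At an unadjusted p under 0.05 the edgeR fit had 755 of all genes and 1 member, Rcl1, at 0.33 ± 0.15, and DESeq2 called 6 of all genes and none of the 50. The median difference of the 2 genotype effects was 0.06 over the set and -0.04 over all genes. Side by side, Heatr1 was at -0.42 and -0.10, Emg1 at -0.63 and -0.28, and Noc4l at -0.59 and -0.23 in LPS-IL-4 and LPS-BAFF-TGFβ, and with SEs of the difference between 0.17 and 0.19 these did not pass. Levels were lower in Pdap1-deficient cells in both stimulations for 49 genes, against 34.3% of the 13793 genes tested in both. In 33 of the 50 the genotypes were separate in both, against 4.89% of those genes. A total of 15 had the larger decrease in LPS-BAFF-TGFβ. These comparisons use different libraries of the same mice.

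The stimulations were then compared within each genotype, with LPS-BAFF-TGFβ set against LPS-IL-4. In control cells 43 of the 50 genes were lower in LPS-BAFF-TGFβ, with a median of -0.24 against 0.03 over all 14882 genes, of which 47.1% were lower. By edgeR 15 genes fell, against 9.33% of all genes, and none rose (19.3% of all genes were called in either direction). At an unadjusted p under 0.05, 27 were lower (15% of all genes). In 29 genes the stimulations were separate and lower, against 18.8% of all genes. Since each mouse gave both cultures, a fit with mouse as a block was made too, and 5 fell in it, against 6.38% of all genes. These were Noc4l, Rrp1b, Bop1, Heatr1 and Tsr1, at edgeR adjusted p from 0.0042 to 0.050. In 1 fit of all 12 libraries 9 fell (8.22%), and 3 fell without control 1 (4.92%) or control 2 (5.42%) in LPS-IL-4 and 4 without control 3 (5.29%). Without control 2 or 3 in LPS-BAFF-TGFβ 9 (8.04%) and 4 (6.14%) fell.

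Among the genes that fell, Noc4l and Rrp1b had the largest differences. Noc4l was at 123, 123 and 132 CPM in control 1, 2 and 3 in LPS-IL-4 and at 74.7, 68.0 and 57.5 CPM in the same mice in LPS-BAFF-TGFβ. It fell by 0.91 ± 0.11 on the log2 scale (edgeR adjusted p = 0.00067), and it also fell in Pdap1-deficient cells. Rrp1b, a pre-60S factor, was at 299, 291 and 288 CPM against 173, 183 and 179 CPM and fell by 0.71 ± 0.08 (edgeR adjusted p = 0.00048). Bop1, at 213, 207 and 232 CPM against 146, 165 and 137 CPM, fell by 0.54 ± 0.10 (edgeR adjusted p = 0.0064). Tsr1 fell by 0.40 (edgeR adjusted p = 0.010), Ddx21 by 0.40 (0.013), Heatr1 by 0.44 (0.017), Ddx18 by 0.37 (0.021) and Utp20 by 0.42 (0.028). Nop2 fell by 0.38 (edgeR adjusted p = 0.032), Ebna1bp2 by 0.30 (0.034), Tcof1 by 0.31 (0.035) and Nop16 by 0.38 (0.037). Wdr74, Nip7 and Rrp12 passed with edgeR adjusted p between 0.038 and 0.046. Tsr1 shares 1240 of its 3837 exon bases with Srr on the opposite strand, so the strand limit given for Emg1 holds for it too.

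By role, 8 of 18 large subunit genes, 5 of 19 processome and 40S genes and 2 of 5 nucleolar proteins fell, and none of the 8 snoRNP genes. Among the snoRNP genes 4 were lower and 4 higher, the highest being Gar1 at 1.55 ± 0.72 (edgeR adjusted p = 0.22) and Fbl at 1.18 ± 0.65 (edgeR adjusted p = 0.30), and both stood highest in the deep library of control 1, at 120 and 208 CPM. Without that library Gar1 was at 0.38 ± 0.20 and Fbl at 0.09 ± 0.10, and 37 of the 50 genes fell, against 15.9% of all genes. These 37 included Nop10 (-0.34, edgeR adjusted p = 0.015), which was at 0.35 with all libraries.

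In Pdap1-deficient cells 47 of the 50 genes were lower in LPS-BAFF-TGFβ, against 50.3% of the 14617 genes tested. The median was -0.19, against -0.00 over all genes, 5 were lower at an unadjusted p under 0.05 (11.6% of all genes), and the libraries of the 2 stimulations were separate for 4 genes, against 14.1% of all genes. Noc4l fell by 0.57 ± 0.15, from 97.0, 72.9 and 81.7 CPM to 65.7, 48.6 and 55.1 CPM (edgeR adjusted p = 0.033), and no other gene was called, against 5.89% of all genes falling and 11.5% called in either direction. With mouse as a block 21 genes fell, against 13.5% of all genes, with Noc4l (-0.57, adjusted p = 4.6e-05), Rrp1b (-0.48, 0.00027), Ddx21 (-0.32, 0.00087) and Ncl (-0.38, 0.0018) at the smallest edgeR adjusted p. Without Pdap1-deficient 2 in LPS-IL-4, 14 fell (7.13%). Without any other 1 of these 6 libraries none did, where 443 to 757 genes fell of 15049 to 15533 tested. DESeq2 (3.48%), library totals alone (5.77%), no filter (4.15%) and 1 fit of 12 libraries (6.93%) each called 2. Rcl1, Nop10 and Imp3 were the 3 genes with values above 0, at 0.06 ± 0.12, 0.19 ± 0.17 and 0.04 ± 0.14, and none passed.

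**Figure D4:**
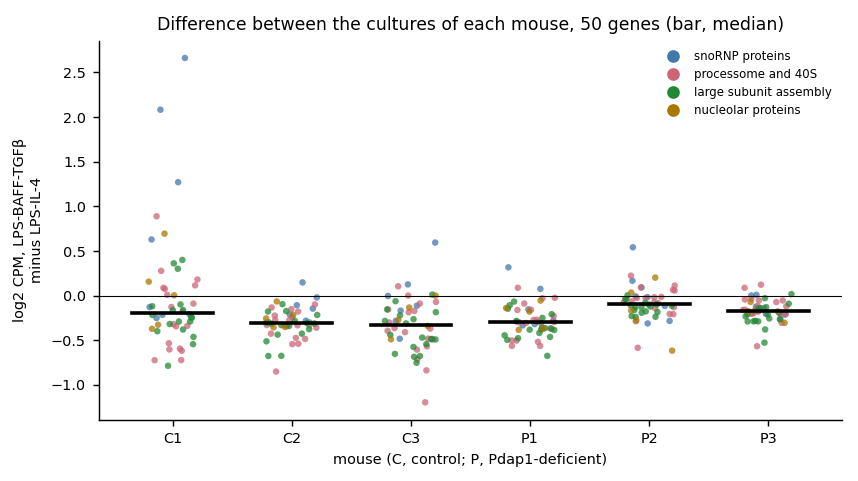
Log2 CPM in LPS-BAFF-TGFβ minus LPS-IL-4 within each mouse for the 50 genes, coloured by role, with a black bar at the median. The medians run from -0.10 in Pdap1-deficient 2 to -0.33 in control 3, all below 0, and 3 snoRNP genes stand above 1 in control 1.

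Within mice, the LPS-BAFF-TGFβ culture was lower for 33, 49 and 44 genes in control 1, 2 and 3 and for 47, 39 and 45 genes in Pdap1-deficient 1, 2 and 3. Over 16840 genes the shares lower were 46.4%, 50.4% and 50.3% in control 1, 2 and 3. They were 47.9%, 51.2% and 49.3% in Pdap1-deficient 1, 2 and 3. The LPS-BAFF-TGFβ culture was lower in all 6 mice for 25 of the 50 genes and higher in all 6 for none. The matching shares over all genes were not worked out, so these last counts are description only. The medians were -0.19, -0.30 and -0.33 in control mice and -0.30, -0.10 and -0.17 in Pdap1-deficient mice, while over all genes the medians were between -0.01 and 0.06.

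Other genes of the pathway were counted from lists of the same roles, none of them members. In LPS-IL-4, 40 of 42 other processome and 40S genes and 49 of 49 other large subunit genes tested were lower in Pdap1-deficient cells, with medians of -0.36 and -0.35, and 6 and 9 of them fell. Among all genes tested there, 47.3% were lower and 2.12% fell, which holds beside each list below. Bysl, a 40S maturation factor, fell by 0.59 and Nle1, a pre-60S factor, by 0.79, with edgeR adjusted p of 0.028 and 0.014. Of 11 other snoRNP factors 10 were lower and 1, the helicase Ruvbl2, fell (-0.57, edgeR adjusted p = 0.044). Of 15 genes of the RNA polymerase I machinery 13 were lower and 4 fell, among them Polr1e (-0.66, edgeR adjusted p = 0.026) and Polr1c (-0.54, edgeR adjusted p = 0.027). All 16 exosome and rRNA nuclease genes tested were lower and 3 fell. Regulators of ribosome synthesis differed from these lists, with 8 of 15 lower at a median of -0.03, 0 that fell and 1 that rose. In LPS-BAFF-TGFβ 38 of 42, 47 of 49, 10 of 11, 13 of 15 and 16 of 16 genes were lower, in the same order. Of the regulators 9 of 15 were lower. No gene of any of these lists was called in either direction, among 0.462% of all genes called.

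Of 20 proliferation genes such as Mcm5 and Pcna, 17 were lower in Pdap1-deficient LPS-IL-4 cells at a median of -0.13, and none passed the test. Their summed level was 9090 to 9316 CPM in control and 9873, 7926 and 9462 CPM in Pdap1-deficient 1, 2 and 3, so that the sum was above every control in Pdap1-deficient 1 and 3 and below in Pdap1-deficient 2. Of 11 integrated stress response genes, 9 rose there and 8 in LPS-BAFF-TGFβ, at medians of 2.71 and 2.83, with Chac1 at 3.19 ± 0.16 in LPS-IL-4 (edgeR adjusted p = 1.1e-05). Among all genes 421 of 15074 rose in LPS-IL-4 and 64 of 14079 in LPS-BAFF-TGFβ. Myc was at 127, 136 and 153 CPM in control and at 114, 77.7 and 94.3 CPM in Pdap1-deficient LPS-IL-4 libraries. The groups did not overlap, and the difference was -0.55 ± 0.15 (edgeR adjusted p = 0.058). In LPS-BAFF-TGFβ Myc was at -0.39 ± 0.14 (edgeR adjusted p = 0.40). Between stimulations it fell by 0.46 ± 0.10 in control cells (edgeR adjusted p = 0.015).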

How the data were processed

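RNA-seq of 12 libraries in 4 groups of 3 mice was used. Per the labels and methods, rRNA was depleted, reads were trimmed (Trim Galore 0.6.1), mapped to GRCm38 (STAR 2.6) and counted per Ensembl gene (HTSeq 0.9.1), and the counts were deposited by the authors without normalization. The annotation release is not given in the sources used here. The labels name the CH12 line and an mRNA kit. The methods describe primary splenic cells and total RNA, and these were taken as correct. A second, normalized table of counts was not used.

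Counts were filtered with filterByExpr, scaled with TMM and tested with the edgeR 4.0.16 quasi-likelihood F test (robust) in R 4.3.3 over all genes, with Benjamini-Hochberg adjusted p under 0.05. DESeq2 1.42.0 was an alternative. Levels are CPM scaled by TMM over all libraries. Symbols came from GENCODE M21, copies from blastn 2.17.0. In simulated data with 200 genes changed 3-fold, the test recovered 84.0% of them when genotypes were compared in LPS-IL-4. Recovery was 72% for genotype in LPS-BAFF-TGFβ and 45% for the genotype by stimulation term. Between stimulations it was 78% in control and 76.5% in Pdap1-deficient cells. The largest log2 difference of the 50 genes in LPS-IL-4, -0.79, is smaller than a 3-fold change. Recovery of changes of that size was not tested. With 3 mice a group, an exact permutation test cannot go below p = 0.1. The members and lists were chosen with earlier results of these data known, and the lists support nothing on their own. A gene of the B cell marker list is not reported here and was left out of its sums. Named genes were chosen by rule: members called, fixed key members and extremes.

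The cultures of a mouse share its number by the series design. Deviations from the group mean correlated within mouse at -0.33, 0.30 and -0.29 in controls and 0.41, 0.61 and 0.44 in Pdap1-deficient mice. The highest correlations with another number were 0.27, 0.08 and 0.51 in controls and 0.15, -0.29 and -0.08 in Pdap1-deficient mice. In control 1 and 3 another number thus correlated more highly, so the mouse block and within-mouse values of controls rest on the design alone.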

Additional observations from a re-analysis of the deposited data

How the results depend on the processing

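In LPS-IL-4 the count of genes called between genotypes, 13 in the report, was 27 with DESeq2, 32 with no filter on low counts and between 0 and 28 with 1 library left out. It was 1, 0 and 0 without control 1, 2 and 3 and 26, 28 and 0 without Pdap1-deficient 1, 2 and 3. The medians ran from -0.52 to -0.29 in these fits and no gene called in the report changed sign. In LPS-BAFF-TGFβ the count of 0 became 3 with DESeq2 and 5 with no filter on low counts (Lyar, Nolc1, Nop2, Rrp9 and Rrs1). It stayed at 0 with each library left out, where 1 to 11 of all genes fell, with medians over the 50 from -0.43 to -0.26. Between stimulations in control cells the 15 became 5 with the mouse as a block, 9 in 1 fit of 12 libraries and 3 to 37 with 1 library left out. The 3 came without control LPS-IL-4 1 or 2 and the 37 without the deep control 1. In Pdap1-deficient cells the 1 became 21 with the mouse as a block, 2 with DESeq2, with library totals alone, with no filter or in 1 fit of 12 libraries, and 0 to 14 with 1 library left out, where 14 came without Pdap1-deficient 2. For the genotype by stimulation term the count stayed at 0 and the median ran from -0.08 to 0.17. The cause of these shifts was not tested. In the genotype comparisons mice of the 2 genotypes share only a number. Their deviations correlated at -0.05, -0.15 and -0.25 in LPS-IL-4 and 0.23, -0.19 and 0.14 in LPS-BAFF-TGFβ. With the replicate block 14 and 0 of the 50 genes fell, against 257 of 15074 and 4 of 14079 genes tested. Where a library was left out of a group, that group kept 2 libraries. With 3 mice per group, precision was limited by the spread between mice.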
